A study of Mus musculus with 8 samples.

Results

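The Fos and Jun genes encode the subunits of AP-1, a transcription factor that binds DNA as a pair of leucine zipper proteins. Fos proteins (from Fos, Fosb, Fosl1 and Fosl2) do not pair with themselves and need a Jun partner, whereas Jun proteins (from Jun, Junb and Jund) pair with each other or with a Fos protein. Many of these genes are immediate-early genes, which are transcribed soon after a cell is stimulated and without new protein synthesis, and their short-lived transcripts are read as a record of recent signalling. In the ovary, AP-1 is best known from granulosa cells, the somatic cells around the oocyte, where gonadotrophins induce it. The 7 genes of the family, 4 of the Fos type and 3 of the Jun type, were all found by symbol among the 26586 genes listed. The family was chosen by symbol, from measured values of these same libraries, and which values were used is not stated. The differences between the groups are therefore given below as a description, and counts of members past a threshold are no independent test.

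RNA-Seq was performed on primordial follicles, each a small oocyte within flat granulosa cells, that had been isolated on postnatal day 3 from ovaries of C57Bl/6 x CBA mice. The 4 mito-supplemented samples came from the third generation descended from founders whose oocytes had received mitochondria of egg precursor cells together with a spermatozoon by intracytoplasmic sperm injection. The 4 control samples came from colony mice bred by natural mating, without injection or added mitochondria, so effects of the injection and of the mitochondria cannot be told apart. The day 3 mice themselves received no treatment. In both groups the ovary pieces were digested with Liberase, an enzyme mixture, follicles were picked by pipette and the RNA was amplified before sequencing. The libraries held from 10370045 to 19760763 counts. The meaning of the code in each sample label is not known. Control replicates 1 and 2 share a code, as do control replicates 3 and 4 and mito-supplemented replicates 1, 2 and 3, while mito-supplemented replicate 4 has its own. Where samples come from the same litter or animal, p values measure only the spread between these samples.

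Some libraries stood apart before any gene of the family was considered. Markers of red cells (7 of 9 listed genes found, Slc4a1 the most abundant) summed to 4012 CPM (counts scaled to the library's total and normalised for its composition by the TMM method) in control replicate 2, 2682 CPM in control replicate 3 and 4952 CPM in mito-supplemented replicate 1, against 14.1 to 79.0 CPM in the other 5 libraries. Oocyte markers summed to 3573 CPM in control replicate 1 and to between 102 and 734 CPM in the others. In control replicate 4, the genes listed as Rnr1 and Rnr2 took 74.0% of the counts, and its normalisation factor was 0.489, the lowest of the 8. Each library was left out in turn.

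Fos type and Jun type genes differ in structure. According to GENCODE M21 on GRCm38, Fos lies on chromosome 12 from 85473890 to 85477273 on the plus strand, with 4 exons in its longest coding transcript. Fosb lies on chromosome 7 from 19302696 to 19310051 on the minus strand, Fosl2 on chromosome 5 from 32135801 to 32157842 on the plus strand and Fosl1 on chromosome 19 from 5447547 to 5455946 on the plus strand, each also with 4 exons in that transcript. The longest coding transcripts of Jun, Junb and Jund have 1 exon each, as do those of 2.38% of the 12838 protein-coding genes tested that had annotation. Jun lies on chromosome 4 from 95049034 to 95052222 on the minus strand. Junb (84974484 to 84978718, minus strand) and Jund (70698949 to 70700616, plus strand) are both on chromosome 8, and merged exons cover 2301 bases of Junb, more than the 1809 of that transcript. Jund and Junb had the highest GC content of the family, 67.2% and 62.6%, above 99.9% and 99.0% of those coding genes. The content was 58.5% for Fosl1, 55.98% for Fosb, 55.5% for Jun, 53.1% for Fosl2 and 51.9% for Fos. The pentamer ATTTA, a core of elements that shorten the life of many immediate-early transcripts, occurred 4 times in the 815 bases of the 3′ untranslated region of Fos, 4 times in Jun, 8 times in the 4653 bases of Fosl2, 2 times in Junb and once each in Fosb, Fosl1 and Jund. This is 4.91 per kb for Fos, 4.12 for Junb and 0.466 for Fosb, against a median of 1.34 per kb over 12764 coding genes.

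The bases just upstream of the starts of Fos, Fosb, Jun and Junb are shown because these promoters carry a match to TGACG or TGACNTCA, described after the sequences. They are from RefSeq on GRCm38.p6, which held a promoter for 6 of the 7 members, and each runs 5′ to 3′ on the strand of its gene over the last 120 bases before the start. The 250 bases before each start were searched on both strands for the 7 motifs named after the sequences, and capitals mark the matches.
Fos (chr12:85473770-85473889, plus strand): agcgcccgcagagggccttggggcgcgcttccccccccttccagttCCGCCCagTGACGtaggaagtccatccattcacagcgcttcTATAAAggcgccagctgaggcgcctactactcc
Fosb (chr7:19310046-19310165, minus strand): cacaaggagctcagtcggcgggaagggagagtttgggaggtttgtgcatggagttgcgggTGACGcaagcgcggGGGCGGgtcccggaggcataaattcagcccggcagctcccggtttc
Jun (chr4:95052223-95052342, minus strand): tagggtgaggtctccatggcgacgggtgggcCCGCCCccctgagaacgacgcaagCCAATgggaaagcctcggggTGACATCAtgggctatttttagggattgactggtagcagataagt
Junb (chr8:84978749-84978868, minus strand): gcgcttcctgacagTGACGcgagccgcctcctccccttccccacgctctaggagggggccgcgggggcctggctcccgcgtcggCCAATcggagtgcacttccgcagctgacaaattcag
TGACG, the core of the cAMP response element, was matched at -66 to -62 and again at -129 to -125 of Fos, counted back from the start, at -60 to -56 of Fosb and at -106 to -102 of Junb. It was present in 17.8% of 32851 mouse promoter windows of the same length. Jun held TGACATCA at -45 to -38, a match to TGACNTCA, which 7.49% of windows contained. That match does not contain the core TGACG, and which factors bind it was not tested. TATAAA (12.4% of windows) was found in Fos alone of the 6, CCAAT (33.8%) in Jun and Junb, and GGGCGG (32.7%) in Fos, Fosb, Jun and Fosl2. TGANTCA (6.75%), the short form of the AP-1 site, was in none of the 6 windows. Nor was the CArG box (1.47%), the site of serum response factor, read as CC, 6 bases of A or T and GG. Bases more than 250 upstream of a start were not searched, so a site there would have been missed. The window of Jund held none of the motifs. The RefSeq start of Jund used there, at 70697739, lies upstream of the GENCODE start at 70698949, so the bases next to the GENCODE start were not searched. A match is a description of the letters only.

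Fos, the founding member and the partner that gives the Fos-Jun pair its strong binding, had the clearest separation between the groups. Its level was 10.3, 11.3, 43.3 and 13.4 CPM in control replicates 1 to 4 and 63.6, 129, 213 and 292 CPM in mito-supplemented replicates 1 to 4, from 68 to 4692 counts. All 4 mito-supplemented libraries lay above all 4 controls, with control replicate 3 the highest control and mito-supplemented replicate 1 the lowest of its group. The mean was 19.6 ± 15.9 CPM for control against 174 ± 99.5 CPM for mito-supplemented libraries (SD, n = 4 per group). The log2 fold change in edgeR's quasi-likelihood fit was 3.15 with a standard error of 0.64, and 3.90 when control replicate 3 was left out. As these are RNA pools of whole follicles and any cells attached to them, more cells that express a gene and more RNA per cell cannot be told apart here or for any gene below.

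Fosb, which encodes a full-length and a shortened Fos protein by alternative splicing, was at 6.60, 5.47, 10.1 and 20.9 CPM in the controls and at 20.7, 53.2, 66.5 and 252 CPM in the mito-supplemented libraries. The groups met at their edges, since control replicate 4 was slightly above mito-supplemented replicate 1. Means were 10.8 ± 7.05 and 98.0 ± 104 CPM (SD, n = 4 per group), so the spread within the mito-supplemented group exceeded its mean. The log2 fold change of 3.19 (standard error 0.79) became 2.16 when mito-supplemented replicate 4 was left out. It was 4.06 when counts were summed by label code, where that library stands alone against the sum of the other 3 of its group. The 2 splice forms were not separated in the counts.

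Fosl2, which encodes Fra-2, a Fos protein without the strong activation domains of Fos itself, was at 23.3, 7.53, 29.3 and 15.6 CPM in controls and at 30.7, 51.7, 52.6 and 100.8 CPM in mito-supplemented samples. The groups did not overlap, but the gap was narrow, from 29.3 CPM in control replicate 3 to 30.7 CPM in mito-supplemented replicate 1. The mean was 18.9 ± 9.45 CPM in controls against 59.0 ± 29.7 CPM (SD, n = 4 per group), and the log2 fold change was 1.64 (standard error 0.51). Fosl1, which encodes Fra-1, was barely detected. It had 0 counts in all 4 controls and 9, 2, 2 and 0 counts in the mito-supplemented libraries, where 3 counts, the limit that a count of 0 allows, correspond to between 0.123 and 0.592 CPM depending on the library. Fosl1 did not pass the expression filter, and no fold is given.

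Jun, the main partner of the Fos proteins, varied widely among controls. It was at 27.7, 273, 129 and 92.0 CPM in the controls and at 194, 255, 287 and 600.0 CPM in the mito-supplemented libraries. Control replicate 2 exceeded mito-supplemented replicates 1 and 2, and control replicate 1 was the lowest library, 9.84-fold below control replicate 2. The means were 130.4 ± 104 and 334 ± 181 CPM (SD, n = 4 per group), and the log2 fold change of 1.36 (standard error 0.63) became 2.01 when control replicate 2 was left out and 0.93 when mito-supplemented replicate 4 was.

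Junb and Jund, which encode Jun proteins that are weaker activators than Jun and can hold back its growth-promoting activity, were overlapping between the groups. Junb ranged from 2.17 to 11.3 CPM in controls, and from 10.5 to 30.9 CPM in mito-supplemented samples (6.16 ± 3.78 and 16.9 ± 9.63 CPM, SD, n = 4 per group; log2 fold change 1.45, standard error 0.61). The lowest value, in control replicate 4, rested on 11 counts. Jund, the member usually present in resting cells, ranged from 4.59 to 30.8 CPM in controls, and from 16.1 to 46.4 CPM in mito-supplemented samples (17.5 ± 11.1 and 31.6 ± 12.6 CPM, SD, n = 4 per group). Its log2 fold change was the smallest of the 6 members fitted, 0.85 with a standard error of 0.57, and it became 0.44 with an offset for GC content and transcript length.

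**Figure D1:**
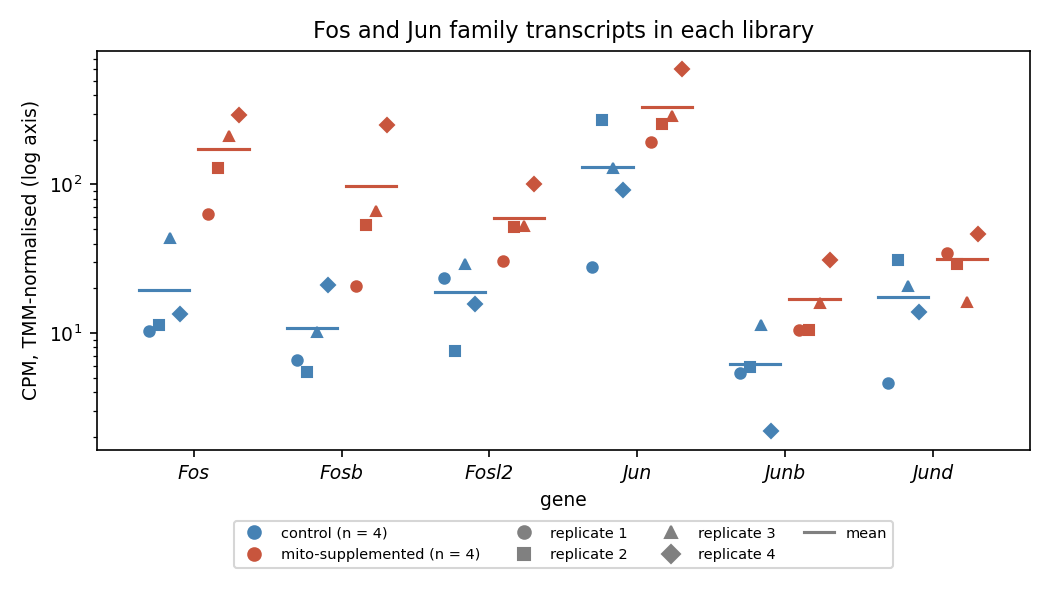
TMM-normalised CPM on a log axis for the 6 members that passed the expression filter, with 1 point per library (blue control, red mito-supplemented, symbols by replicate) and a bar at the mean of 4. For Fos the mito-supplemented points, from 63.6 to 292 CPM, all lie above the highest control at 43.3 CPM, whereas for Jun control replicate 2 at 273 CPM lies above 2 mito-supplemented libraries.

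Of the 7 members, 6 passed the filter, and 0 of these were called by edgeR's quasi-likelihood test at a Benjamini-Hochberg adjusted p under 0.05 with a 2-fold difference, as were 0% of the 13873 genes tested. That test gave 1069 genes at an unadjusted p under 0.05, of which 736 were higher in mito-supplemented samples (5.31% of genes tested). Among those higher were 4 members, Fos, Fosb, Fosl2 and Junb. The likelihood ratio test called 58 genes, 57 of them higher (0.411% of genes tested), and 2 members were among them, Fos and Fosb. DESeq2 called 141 genes, with the same 2 members, and limma-voom called 0 genes. A difference of at least 2-fold was seen for 5 members, all but Jund, and for 13.5% of genes tested in the same direction. The groups did not overlap for 2 members, Fos and Fosl2, and for 3.00% of genes. Nothing is read from these counts or shares, because the members were chosen with values of the same libraries known. The call of Fos was lost without control replicate 2, and that of Fosb without control replicates 1, 2 or 3 or mito-supplemented replicates 2 or 4 and with the GC and length offset. Fosl2 was also called without mito-supplemented replicate 1, and Jun without the 3 libraries high in Slc4a1. Over all genes, the number called by the likelihood ratio test depended on the scaling and on single libraries. It was 210, all higher, when scaled by library size only, and 175, with 108 higher, without the 3 libraries high in Slc4a1. The 58 genes became 22 when control replicate 2 was left out and 331 for control replicate 4, and they became 387, 13 and 26 for mito-supplemented replicates 1, 2 and 4. Of the 387, 229 were higher, against 57 of the 58. The 1069 genes at an unadjusted p under 0.05 became 1863 in the absence of control replicate 4, and 2003, 572 and 636 in that of mito-supplemented replicates 1, 2 and 4.

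All 6 members fitted had a positive log2 fold change in each of the 20 alternatives, while the median of all genes tested was -0.10 and 44.9% of them were higher. In the fits that left out 1 library, the log2 fold change ran from 2.81 to 3.90 for Fos, from 2.16 to 3.74 for Fosb, from 1.28 to 1.93 for Fosl2, from 0.93 to 2.01 for Jun, from 1.02 to 1.91 for Junb and from 0.55 to 1.28 for Jund. As the family was chosen from values of these libraries, this direction is no independent sign of stability. Without the 3 libraries above 1000 CPM of Slc4a1, an alternative added after the data were seen that keeps 2 controls and 3 mito-supplemented samples, the values were 4.18 for Fos, 3.20 for Fosb, 1.83 for Fosl2, 2.68 for Jun, 2.34 for Junb and 1.76 for Jund.

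**Figure D2:**
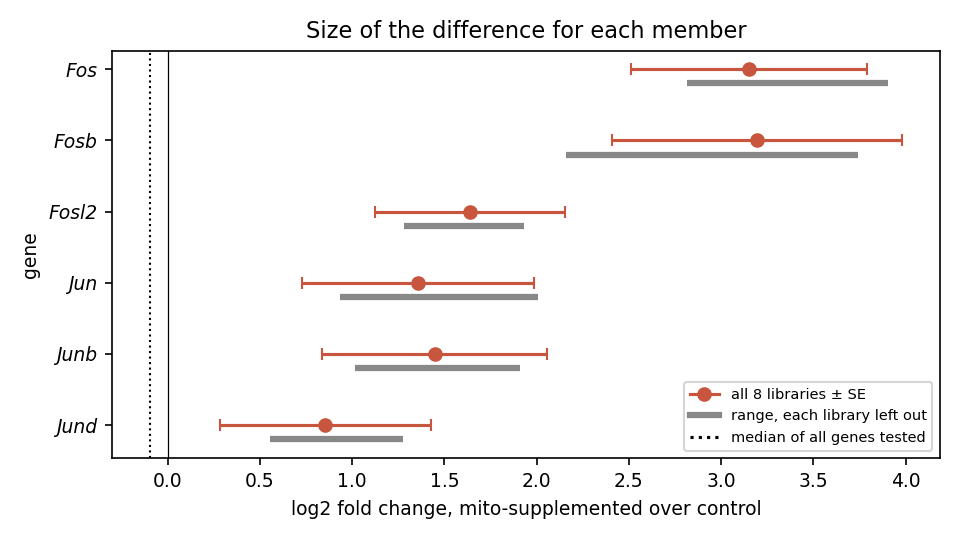
Log2 fold change of mito-supplemented over control samples for 6 members (points, with standard error bars, 8 libraries), with grey bars from the lowest to the highest value when each library was left out and a dotted line at the median of all genes tested, -0.10. Fos at 3.15 and Fosb at 3.19 lie highest, and Jund at 0.85 lies lowest.

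Levels of different genes were compared per length, as CPM per kb of merged exons. In controls the order was Jun (40.9 ± 32.6 CPM per kb), Jund (10.5 ± 6.63), Fos (8.33 ± 6.76), Junb (2.68 ± 1.64), Fosl2 (1.96 ± 0.98) and Fosb (1.73 ± 1.13), all SD with n = 4. In mito-supplemented samples Jun was again first, at 105 ± 56.9 CPM per kb, but Fos came next at 74.2 ± 42.3, then Jund at 19.0 ± 7.56, Fosb at 15.7 ± 16.7, Junb at 7.35 ± 4.19 and Fosl2 at 6.09 ± 3.07 (SD, n = 4). Fos thus stood above Jund and Fosb above Junb in the mito-supplemented means, and below them in the control means. This change of order reflects the same difference between the groups and was not tested. The order also depends on the length used. Fosb has 6243 bases of merged exons but 3782 in its longest transcript, while Jund has 1668 by both. With the longest transcript as length, Fosb would stand above Jund in the mito-supplemented means.

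Over all 8 libraries, the order of the mean log2 level per length was Jun, Fos, Jund, Fosb, Junb and Fosl2, and each member was set beside the next within libraries. Jun was above Fos in 7 of 8 libraries, by 1.36 ± 1.30 on the log2 scale (SD, n = 8), with a mean difference of 2.14 in controls and 0.57 in mito-supplemented libraries. Jund was above Fosb in 6 of 8 by 1.58 ± 1.59, and the mean was 2.42 in controls and 0.74 in the other group. Fos was above Jund in 6 of 8 libraries by 0.77 ± 1.59, but the mean was -0.31 in controls and 1.85 in mito-supplemented libraries. Fosb was above Junb in 4 of 8 by 0.04 ± 1.33, with -0.58 in controls and 0.66 in the other group, and Junb was above Fosl2 in 5 of 8 by 0.31 ± 0.69, with 0.38 and 0.25. With the longest transcript as length in place of merged exons, Jund minus Fosb was 0.89, Junb minus Fosl2 0.10 and Fosb minus Junb 0.40. With merged exons, for each pair but Jun with Fos, the mean difference was smaller than its SD over the libraries. That SD includes the difference between the groups, which the choice of the family may have used, so the order is given as a description, without a test.

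The make-up of the family was read from the share of each member in the summed level per length. The shares rest on merged exons as length and would differ with the longest transcript. Jun made up 40.3% to 75.7% in controls and 42.2% to 50.7% in mito-supplemented samples. Fos made up 4.26% to 22.8% in controls and 22.5% to 42.5% in mito-supplemented samples, overlapping only between control replicate 3 and mito-supplemented replicate 1. The Fos type genes together accounted for 23.1% ± 13.0 in controls and 40.4% ± 9.18 in the mito-supplemented group (SD, n = 4 per group). Fos per Jun, both per length, was 0.501, 0.0563, 0.456 and 0.198 in controls 1 to 4 and 0.443, 0.688, 1.01 and 0.661 in the mito-supplemented libraries. Control replicate 2 had the lowest ratio, and only in mito-supplemented replicate 3 did Fos reach the level of Jun. Fosl2 counts per Fos count were 0.664 to 2.28 in controls and 0.247 to 0.483 in mito-supplemented samples, a ratio within a library that is not affected by its depth.

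**Figure D3:**
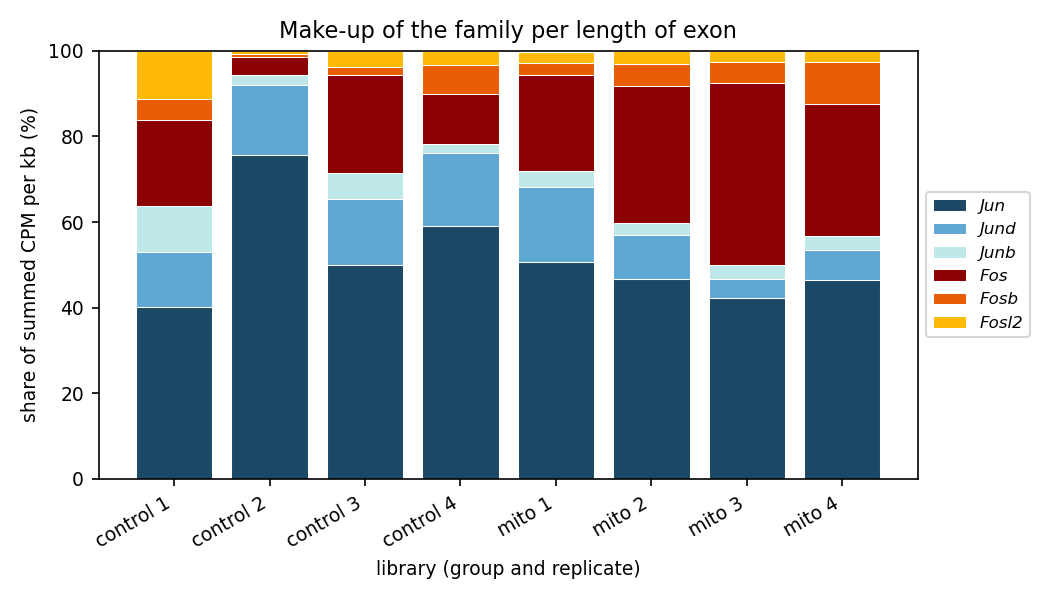
Share of each member, in percent, in the summed CPM per kb of the family for each library, with Jun type genes in blue and Fos type genes in red to yellow. Fosl1, at most 0.179% in any library, is not drawn, and the share of Fos runs from 4.26% in control replicate 2 to 42.5% in mito-supplemented replicate 3.

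The members were also compared in how they varied across the 8 libraries. Pearson's r of log2 CPM was 0.90 for Fos with Fosl2, 0.89 for Fos with Fosb and 0.87 for Fos with Junb, and it was 0.90 for Jun with Jund. Among the other 13872 genes, Fosl2 ranked 80 in likeness to Fos, Fosb ranked 104 and Junb 159, whereas Jund ranked 2013. In likeness to Jun, Jund ranked 46. As the choice of the family may have used the difference between the groups, r was also taken over deviations from the group means of the same 8 libraries. It was then 0.87 for Jun with Jund, 0.73 for Fos with Fosl2 and with Junb, 0.66 for Fos with Fosb and 0.44 for Fos with Jun, and it was -0.26 for Fosl2 with Jund. These values pool the groups, which need not be alike, since Jun counts per Jund count were 6.04 to 8.87 in controls and 5.59 to 17.9 in mito-supplemented libraries. All these points share the depth and tissue make-up of their library, and the coefficients are given as a description.

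**Figure D4:**
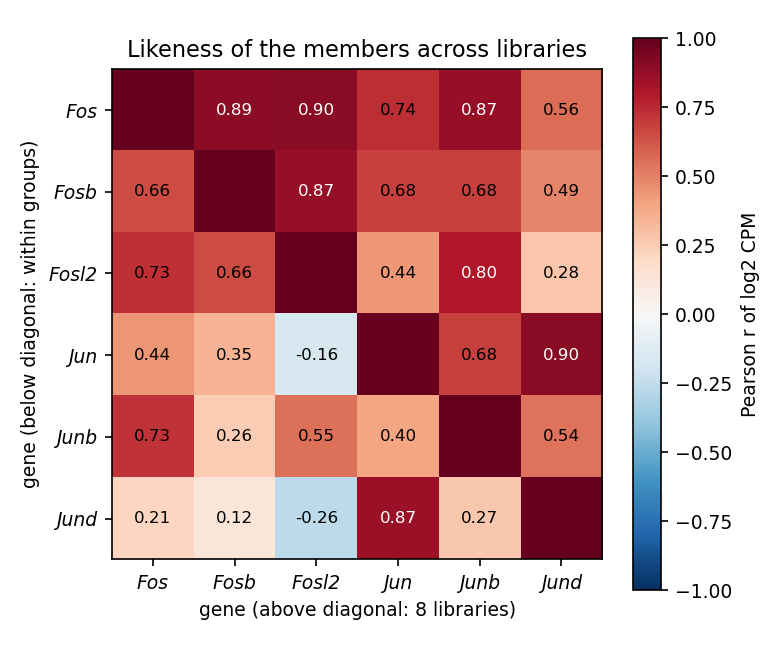
Pearson's r of log2 CPM between members, over the 8 libraries above the diagonal and over deviations from the group means of the same libraries below it. Jun with Jund is at 0.90 above and 0.87 below the diagonal, and Fos with Jund is at 0.56 and 0.21.

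The genes most like each member over the 8 libraries were named by r alone. For Fos these were Arl6 (r = 0.98), Hoxb3 and Cpd (0.97 each), and within groups they had r = 0.92, 0.86 and 0.89. For Fosb they were Cstb, which encodes a protease inhibitor (r = 0.996, and 0.99 within groups), Pak6 (0.98) and Fez1 (0.98). Fosl2 was most like Irgq, Klf4 and Lrrc4c (0.98 each). Klf4, an immediate-early transcription factor, was the sole gene of the pathway lists among those nearest to a Fos type member. Jun was most like Bet1l (0.99), Rdh13 (0.98) and Rps6ka4 (0.97), the last a kinase downstream of MAP kinases. Junb was nearest to Rem1 (0.97), Ssr2 (0.97) and Tmem184a (0.96), and Jund to Ttc18 (0.98), Arnt (0.97) and Parp16 (0.96). These are the highest of 13872 coefficients for each member over 8 libraries, and several of the genes had few counts. Means in controls were as low as 0.371 CPM for Hoxb3, 0.615 for Rem1, 0.781 for Rps6ka4 and 1.01 for Ttc18.

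The wider pathway was read from lists of genes. A gene near 0 in 1 group could pass the expression filter through the other group alone. Shares of genes higher and medians thus describe the genes tested, not the whole list. In each of the 15 lists named here, edgeR's quasi-likelihood test and limma-voom called 0 genes, and the counts at an unadjusted p under 0.05 and the calls of the likelihood ratio test and DESeq2 are given list by list. Other bZIP proteins that pair with Fos or Jun or share their sites had 11 of 19 genes tested higher, a median log2 fold change of 0.21 (-0.12 when mito-supplemented replicate 1 was left out, and 0.57 with 16 of 19 higher when scaled by library size only) and 1 gene at an unadjusted p under 0.05. That gene, Atf3, a stress-induced partner of Jun, was at 6.21 ± 5.49 CPM for control against 109.9 ± 66.3 CPM for mito-supplemented libraries (SD, n = 4 per group, as for the pairs of means that follow) and was called by the likelihood ratio test and by DESeq2. Maff (2.16 ± 2.13 and 8.31 ± 5.03 CPM) and Cebpb (0.414 ± 0.222 and 1.56 ± 1.17 CPM) came next in size and were not called. The most abundant partner, Nfe2l2, which encodes the oxidative stress factor NRF2, was at 153 ± 71.1 and 208 ± 13.7 CPM.

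The kinases that carry signals to AP-1, of the RAS, RAF, MAP kinase and RSK families, were close to the median of all genes. Of 26 tested, 11 were higher and 15 lower, with a median log2 fold change of -0.04 (0.16 when scaled by library size only, which moved the median of all genes from -0.10 to 0.17) and 0 genes at an unadjusted p under 0.05, and 0 were called by the likelihood ratio test or DESeq2. The largest differences, in Rps6ka4 (1.11, standard error 1.27), Rps6ka2 (0.95, standard error 0.51) and Rps6ka1 (-0.85, standard error 0.68), were each less than 2 standard errors from 0, and Braf, the most abundant, was at 152 ± 49.1 and 119 ± 26.5 CPM. Transcription factors and coactivators that act on the promoters of Fos and Jun, such as SRF, the ELK proteins, CREB1 and its coactivators, were likewise centred on -0.01 (8 of 17 higher), with 0.29 when scaled by library size only and -0.18 to 0.20 with each library left out. At an unadjusted p under 0.05 there was 1, the CREB coactivator Crtc1 (19.3 ± 5.54 and 38.6 ± 18.4 CPM), and 0 were called by the likelihood ratio test or DESeq2. Crtc2 was at 10.9 ± 3.19 and 19.0 ± 1.62 CPM, Mef2a at 59.5 ± 22.1 and 99.0 ± 15.8 CPM, and Crebbp, the most abundant, at 794 ± 319 and 608 ± 112 CPM.

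Genes for turnover of AP-1 transcripts and proteins and for switching off MAP kinases had 7 of 16 higher and a median of -0.10, with 0.14 when scaled by library size only and -0.20 to 0.10 with each library left out. Zfp36, whose protein binds AU-rich elements and speeds decay of transcripts that contain them, was at 18.9 ± 14.8 and 103 ± 53.3 CPM and was called by the likelihood ratio test and DESeq2. Dusp6, a phosphatase that removes the activating phosphates of ERK kinases, was at 1.80 ± 1.25 and 14.1 ± 11.9 CPM with groups that did not overlap, and was called by neither. These were the 2 genes at an unadjusted p under 0.05. Fbxw7, which marks Jun protein for destruction, was at 58.4 ± 33.1 and 31.9 ± 11.5 CPM, and Hnrnpd, the most abundant, at 280.2 ± 76.4 and 217 ± 53.5 CPM.

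Among genes known in other cells as candidate targets of AP-1, those tested were mostly higher. Of 29 listed, Mmp1a and Mmp3 had 0 counts in all libraries and 17 were tested, of which 14 were higher, with a median of 1.09 (0.76 to 1.18 with each library left out) and 6 at an unadjusted p under 0.05. Ptgs2, which encodes the inducible cyclooxygenase of prostaglandin synthesis, was at 0.0410, 1.19, 0.515 and 0 CPM in the controls and at 7.47, 2.42, 8.94 and 21.1 CPM in the mito-supplemented libraries, and was called by the likelihood ratio test and DESeq2. The controls alone would not have carried Ptgs2 past the expression filter, so it could enter the list only as higher. Plau, a secreted protease, was at 3.93 ± 2.45 and 13.0 ± 2.72 CPM. The receptor for that protease, Plaur, owed its difference to mito-supplemented replicate 1, at 20.1 CPM, against 0 to 1.09 CPM in the other 3 of the group. Vim, the most abundant, was at 216 ± 162 and 438 ± 191 CPM.

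Of the other immediate-early genes, 23 of 26 tested had a higher mean in mito-supplemented samples in the fit, with a median of 1.14 (1.08 to 1.38 with each library left out) and 9 at an unadjusted p under 0.05. Egr1, a zinc finger factor induced by the same signals as Fos, was at 126, 55.6, 141 and 117 CPM in controls and at 206, 475, 753 and 1148 CPM in mito-supplemented samples, and was called by the likelihood ratio test. DESeq2 called Egr1, Nr4a1 (5.46 ± 2.22 and 32.3 ± 26.9 CPM) and Klf4 (7.67 ± 5.81 and 38.1 ± 20.3 CPM). Socs3, an inhibitor of cytokine signalling, was at 1.29 ± 2.23 and 11.3 ± 7.50 CPM and was called by neither. The list summed to 325, 381, 548 and 363 CPM in the controls and to 696, 1067, 1439 and 2166 CPM in the mito-supplemented libraries, the same order within the mito-supplemented group as Fos. Egr4 had 0 counts in 7 of the 8 libraries.

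The list of heat shock genes, not all of which are rapidly induced, did not follow this direction. Of 12 tested, 2 were higher, with a median of -0.31 (-0.43 to -0.11 with each library left out, but 0.27 when the 3 libraries high in Slc4a1 were left out together), and 3 had an unadjusted p under 0.05, Hspb1 as higher and Hspa1b and Hsp90aa1 as lower, while the likelihood ratio test and DESeq2 called 0. Hspa1a was at 0.164, 328, 94.5 and 1.78 CPM in controls and at 24.8, 6.51, 11.8 and 1.95 CPM in mito-supplemented samples, so the difference came from control replicates 2 and 3, which were also high in red cell transcripts. Hspa1b was at 114 ± 153 and 10.6 ± 4.89 CPM, and Hspb1 was at 0.410, 1.59, 0.515 and 5.33 CPM in controls against 10.5, 11.5, 4.81 and 9.18 CPM in the mito-supplemented libraries. Hsp90ab1, the most abundant, was at 2202 ± 419 and 2157 ± 344 CPM. The calls made in these lists by the likelihood ratio test held unequally when each library was left out. Atf3 was called in 8 of the 8 such fits, Egr1 in 4, Ptgs2 in 3 and Zfp36 in 2. Egr1 was lost without control replicate 2 or mito-supplemented replicates 2, 3 or 4, Ptgs2 without control replicates 1 or 3 or mito-supplemented replicates 2, 3 or 4, and Zfp36 without control replicates 1, 2 or 4 or mito-supplemented replicates 2, 3 or 4. The calls of Egr1 and Zfp36 were also lost with the GC and length offset, those of Ptgs2 and Zfp36 with a filter of at least 1 count in any library, that of Ptgs2 with the replicate block and that of Zfp36 with summed label codes.

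Markers of cell types were examined beside the family. A marker can be expressed in more than 1 cell type, so the sums, such as those for granulosa and surface epithelium, are not separate measures of each. Oocyte markers were present in every library, with Nlrp5 the most abundant at 18.4 to 1392 CPM and Oosp1 at 0 in 6 of the 8, and all 14 genes tested were lower in mito-supplemented samples, with a median of -1.81, 1 at an unadjusted p under 0.05 and 0 called. This direction rested on control replicate 1, since the median was 0.13 when it was left out. The sums were 3573, 209.5, 184 and 654 CPM in controls 1 to 4 and 314, 194, 734 and 102 CPM in the mito-supplemented libraries. Granulosa markers (12 of 14 higher, median 0.62, 3 at an unadjusted p under 0.05) had a median of 1.39 when control replicate 4 was left out and 0.34 when control replicate 2 was. They summed to 279, 147, 282 and 725 CPM in controls and to 456, 952, 725 and 962 CPM in mito-supplemented samples. Lgr5 had the highest mean over the 8 libraries and in mito-supplemented samples (175 CPM), whereas in controls Gata4 was first at 69.1 CPM and Lgr5 was at 32.4 CPM. DESeq2 called Lgr5 and Amhr2, while the likelihood ratio test called 0. The 3 genes at an unadjusted p under 0.05 were Lgr5, Amhr2 and Rspo1. The log2 fold change was 0.56 for Foxl2 (standard error 0.67) and 0.43 for Inha (standard error 0.62). The 2 lower genes were Inhbb at -0.25 (standard error 0.77) and Kitl at -0.40 (standard error 0.51). Fshr had 0 counts in 3 libraries.

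Surface epithelium markers were mostly higher in mito-supplemented samples. Of 11 tested, 10 were higher, with a median of 1.87 (3.09 when control replicate 4 was left out, and 1.42 to 2.07 for the others) and 6 at an unadjusted p under 0.05, and Upk1b was called by the likelihood ratio test and DESeq2. They summed to 170, 120, 108 and 742 CPM in controls and to 430.0, 1312, 583 and 1239 CPM in mito-supplemented samples, with Wt1 the most abundant. Control replicate 4, the library with 74.0% of counts in Rnr1 and Rnr2, had the highest sum of the controls, with Fos at 13.4 CPM and Fosb at 20.9 CPM. Stroma markers (12 of 12 higher, median 0.76, 0 at an unadjusted p under 0.05, 0 called) had a median of 1.62 when control replicate 4 was left out, and of 0.44 to 1.07 when each other library was, with 9 of 12 higher when mito-supplemented replicate 4 was left out. They summed to 372, 471, 674 and 2321 CPM in controls and to 982, 1031, 2615 and 2291 CPM in mito-supplemented samples. Col3a1 had the highest mean over the 8 libraries, beside Col1a1 in controls (243 CPM each), and Thy1 was at 0 in 7 libraries.

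Smooth muscle markers (6 of 7 higher, median 0.88, 0 at an unadjusted p under 0.05 and 0 called) summed to 31.2 to 258 CPM in controls and to 50.8 to 363 CPM in mito-supplemented samples, led by Myh11. Their median was 2.10 when control replicate 4 was left out and 0.11, with 4 of 7 higher, when mito-supplemented replicate 4 was. Endothelial markers (7 of 10 higher, median 0.57) had a median of 1.52 when control replicate 4 was left out and of 0.07, with 5 of 10 higher, when mito-supplemented replicate 3 was. They summed to 27.2 to 229 CPM and to 114 to 232 CPM, led by Kdr, and Esam alone was called, by the likelihood ratio test and DESeq2, and was alone at an unadjusted p under 0.05. The likelihood ratio call of Esam was lost in 4 of the 8 fits that left out 1 library, those of control replicates 2 or 3 and mito-supplemented replicates 2 or 3, while Upk1b was called in all 8. That of Esam was also lost with the replicate block, with summed label codes and without the 3 libraries high in Slc4a1. Immune markers (6 of 6 higher, median 1.04, but -2.94 when mito-supplemented replicate 1 was left out and -1.32 with a replicate block, 0 at an unadjusted p under 0.05 and 0 called), led by Lyz2, summed to 9.64 to 181 CPM in controls and to 981 CPM in mito-supplemented replicate 1, against 12.4 to 17.2 CPM in the other 3 of its group, and C1qb was at 0 throughout. Red cell markers were lower in 4 of 4 genes tested (median -0.41, 0 at an unadjusted p under 0.05 and 0 called), and the median was -5.66 when mito-supplemented replicate 1 was left out and 0.41 when control replicate 2 was. Of the 3 libraries high in red cell transcripts, mito-supplemented replicate 1 had the lowest Fos, Fosb, Fosl2 and Jun of its group. Control replicate 2 had the highest Jun and Jund of the controls but the lowest Fosb and Fosl2. Control replicate 3 had the highest Fos, Fosl2 and Junb of the controls. The part of these cell types in the differences of the family was not tested.

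**Figure D5:**
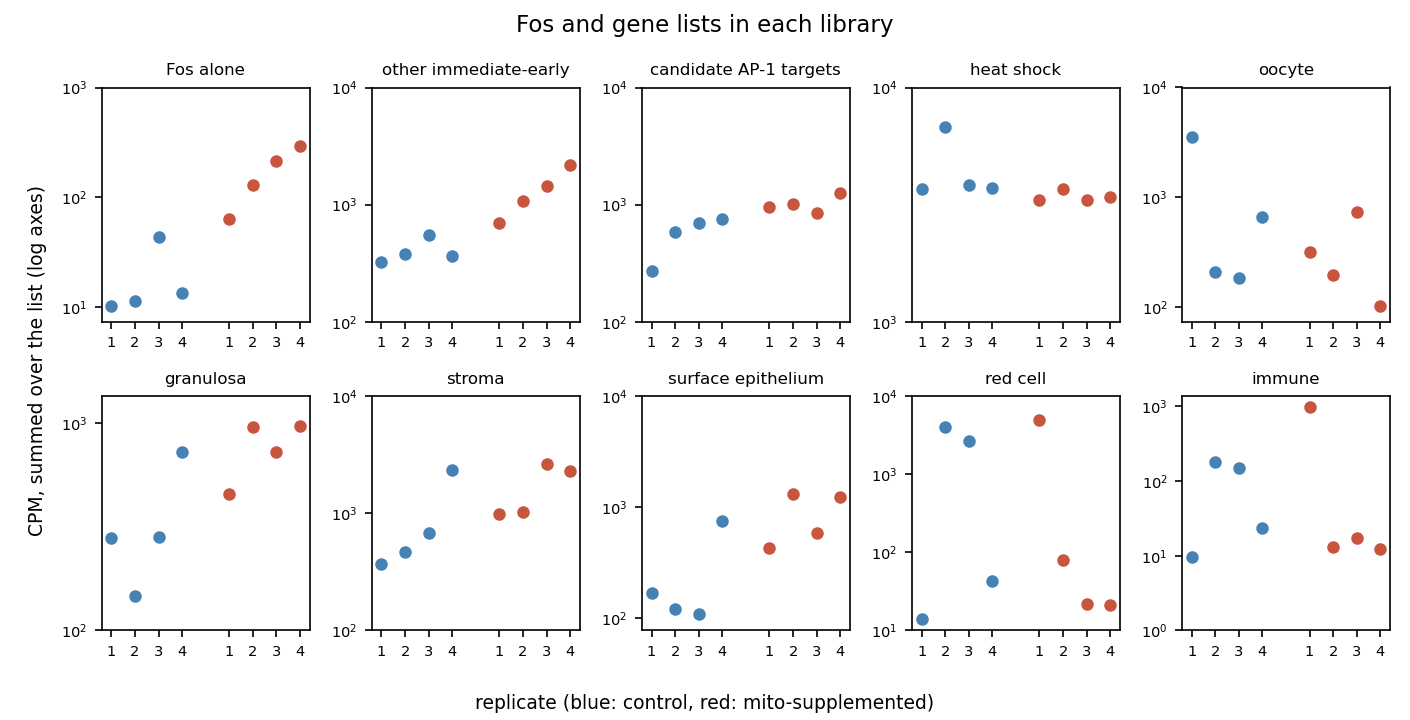
Summed CPM on log axes of Fos alone and of 9 gene lists in each library (blue control, red mito-supplemented, replicates 1 to 4 of each). Fos and the sum of the other immediate-early genes are higher in all 4 mito-supplemented libraries, while the surface epithelium sum of control replicate 4, 742 CPM, lies within the mito-supplemented range of 430.0 to 1312 CPM.

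Counts of some members could include reads of other genes. Exons of Jun and Jund overlap the antisense genes Junos and Gm11175 on the opposite strand, which are not counted separately in these data, and those of Junb and Fosl1 overlap Prdx2 and Ccdc85b, which are. The strand setting of the counting is not given in the sources used here, so reads of the overlapping genes cannot be told apart. Fos, Fosb and Fosl2 had no exon shared with another annotated gene.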

How the data were processed

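The authors trimmed reads with Trim Galore 0.4.4, mapped them to GRCm38 with STAR 2.5.3a and counted them on exons with featureCounts. The deposited values are raw counts for 26586 gene symbols in 8 libraries. Their annotation release and settings for strand and multiple mapping are not given in the sources used here, and 1 control library that they excluded was not analysed here.

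Groups and replicates came from the labels. R 4.3.3 with edgeR 4.0.16 was used to compute TMM factors, CPM, log2 CPM (prior count 2) and, after its default filter (13873 genes), the quasi-likelihood test, with p adjusted by Benjamini-Hochberg. Genes past 0.05 in adjusted p that also differed by at least 1 on the log2 scale were called. The study's likelihood ratio test, DESeq2 1.42.0 and limma 3.58.1 were alternatives, as were other scalings, filters, a block, summed label codes, an offset for GC content and length (known for 97.4% of genes) and leaving out each library. Scripts were tested on simulated data with less spread between libraries than the real data have. That checks the code, not the error rates of the tests in these data. Standard errors were the log2 fold change over the root of F.

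Levels per length used merged exons of GENCODE M21 (24545 symbols matched) and a pseudocount of 0.1, and are given without a test. Named genes were the members, the 3 largest differences and the most abundant gene of each pathway list, and the 3 genes most like each member. Other genes named were chosen after their values were seen. Hras, Adgre1, Hbb-bs and Epb42 were found under older symbols. Members and lists were chosen with earlier results of these data known. Reads from amplified RNA are not independent molecules, so limits of 3 counts describe counting error only.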

Additional observations from a re-analysis of the deposited data

Results flagged for a closer look

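In 42 groups of 4 libraries examined (6 members and 15 list sums in each group), 2 had a library far from the other 3, where chance, at about 1 in 20 groups, gives about 2.1. No member of the Fos and Jun family was among them. The log2 of the summed CPM of the heat shock list, plus 1, was 12.72 in control replicate 2, against 11.85 to 11.91 in the other 3 controls. The log2 of the summed CPM of the immune list, plus 1, was 9.94 in mito-supplemented replicate 1, against 3.74 to 4.19 in the other 3 libraries of that group. Both libraries were also high in red cell transcripts. The cause was not tested.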

How the results depend on the processing

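The quasi-likelihood count of 0 genes held in 18 of 20 alternatives, and it was 58 with the likelihood ratio test (57 higher) and 141 with DESeq2 (131 higher). Without 1 library at a time it ranged from 0 to 0. Replicate numbers were no pairing, as deviations of libraries with the same number correlated at -0.24, -0.19, -0.33 and 0.22, and with the replicate block the count was 0. The split of genes at an unadjusted p under 0.05 moved with scaling and with single libraries. Of these, 68.9% were higher with TMM, 96.1% when scaled by library size only and 50.6% once GC content and length entered as an offset. With each library left out, 50.2% (mito-supplemented replicate 1) to 78.7% (mito-supplemented replicate 2) were higher, and leaving out the 3 libraries high in Slc4a1 gave 54.6%. The median over all genes was -0.10 with TMM, 0.17 by library size and -0.17 under the offset. The offset, and leaving out the 3 libraries high in Slc4a1, were chosen after seeing the data.

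Over the 20 alternatives, the median log2 fold change of a list ran from -0.12 to 0.57 for AP-1 partners, -0.18 to 0.16 for kinases, -0.25 to 0.38 for upstream transcription factors, -0.20 to 0.14 for turnover, 0.76 to 1.52 for candidate targets, 1.07 to 1.49 for other immediate-early genes and -0.43 to 0.27 for heat shock. It ran from -2.57 to 0.13 for oocyte, 0.34 to 1.39 for granulosa, 0.44 to 1.62 for stroma, 0.11 to 2.10 for smooth muscle, 0.07 to 1.52 for endothelial, -2.94 to 1.56 for immune, -5.66 to 1.00 for red cell and 1.33 to 3.09 for surface epithelium markers. The cause was not tested.

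Per length, Fos minus Jund was 0.77 on the log2 scale, -0.31 in control libraries only, and from 0.42 (mito-supplemented replicate 3 left out) to 1.15 (control replicate 2 left out). Fosb minus Junb was 0.04, -0.58 in control libraries only, and from -0.20 (control replicate 4 left out) to 0.27 (control replicate 3 left out), with -0.08, -0.04 and -0.18 when mito-supplemented replicates 2, 3 and 4 were left out. The other 3 pairs kept their direction in all 12 alternatives. With each library left out, Jun minus Fos ran from 0.96 to 1.55, Jund minus Fosb from 1.20 to 1.89 and Junb minus Fosl2 from 0.13 to 0.46, and with the longest transcript as length the 3 were 1.20, 0.89 and 0.10. No test of the pairs is given, since their spread holds the difference between the groups, which the choice of the family may have used. The low counts of Fosl1, Junb and control replicate 4 limit precision.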
